A study of Mus musculus with 22 samples.

Results

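The transcriptional programme of serial passage was described in wild-type (WT) mouse embryonic fibroblasts (MEFs) of the *S6K1/S6K2* set of cultures, by comparing late WT MEFs at passage 8 (libraries 57, 58, 59 and 60) with early WT MEFs at passage 3 (libraries 46, 47, 48 and 50). These 8 libraries were chosen by their labels from the 22 RNA-seq libraries of serially passaged MEFs, and all genes were included. All 8 carry the genotype label S6K1/S6K2 WT and name no drug, vector or transgene, so passage is the labelled difference between the groups. The cells were bulk primary cultures from mid-gestation embryos without head and viscera, grown in atmospheric oxygen. The WT embryos came from WT mothers kept at earlier stages of the breeding that led to the double knockout, and the sources used here do not say which libraries share an embryo or a mother, so *P* values measure the spread between these libraries. The fit also held the 3 late libraries of the set that lack both kinases (DKO), which lent their spread and entered no comparison. The 4 early and 4 late WT libraries of the *S6K1* set, passaged in the same way, served for comparison.

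Fibroblasts placed in culture divide for a limited time and then stop, a state called replicative senescence. In mouse cells the arrest runs through the *Cdkn2a* locus, which encodes the proteins p16INK4a and ARF, and through p53. Senescent cells are known for an enlarged lysosomal compartment and for secreting cytokines, growth factors and proteases, the senescence-associated secretory phenotype (SASP). A culture of minced embryo also holds cells that are not fibroblasts, such as macrophages and mesothelial cells.

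The 8 libraries held 14242348 to 16346322 counts on genes, with a median of 15055562, so that 3 counts corresponded to 0.184 to 0.211 CPM, counts scaled to the size of the library. No library repeated another. CPM values are after TMM scaling and are not divided by transcript length. They are listed in the order of libraries 46, 47, 48 and 50 for early MEFs and 57, 58, 59 and 60 for late MEFs. Means are given ± SD over 4 libraries. Early libraries 46 and 47 stood apart from the rest. On the first principal component of the 8 libraries (51.9% of the variance), early libraries 46 and 47 lay at one end, at −63.4 and −70.7, early libraries 48 and 50 lay at −22.5 and −12.1, and the late libraries lay at 21.1 to 57.9. Short transcripts were also lower in libraries 46 and 47. For the eighth of genes with the shortest transcripts, the median deviation from the mean of the 8 libraries was −0.23 and −0.25 on the log2 scale in early 46 and 47, and 0.19 and 0.34 in late 58 and 59, whereas the other 4 libraries lay between −0.02 and 0.03. Gene groups were therefore also counted without early libraries 46 and 47, and with an offset for transcript length, alternatives that were chosen after seeing the data. Where a count is given without, for example, 46, 47 or 58, a single one of these libraries was left out at a time. Libraries are named where a count above 2 moved by over 1.5 times. Smaller counts moved as much without always being named, such as the 2 risen glycolysis genes, of which 1 was left without 46, 47, 58 or 59.

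The cultures were of both sexes in unequal shares. *Xist*, the RNA that silences an X chromosome in female cells, was at 282, 0.0620, 0.0653 and 199 CPM in early libraries and 0.0623, 0, 1.06 and 245 CPM in late libraries, and the Y-linked *Ddx3y* was at 0, 81.9, 90.0 and 0 CPM in early and 109, 113, 160.3 and 0.0663 CPM in late MEFs. *Uty*, *Kdm5d* and *Eif2s3y* split the libraries in the same way, so 2 of 4 early and 3 of 4 late libraries expressed Y-linked genes. The count of genes called below was 1528 with the Y-linked level as a covariate and 489 in the 5 libraries with Y-linked RNA alone. Both kinase genes were expressed at both passages. *Rps6kb1*, which encodes S6K1, was at 87.8, 79.5, 74.1 and 87.1 CPM in early and 78.9, 68.4, 66.2 and 90.8 CPM in late MEFs, and the groups overlapped (adjusted *P* = 0.607, edgeR). *Rps6kb2*, which encodes S6K2, was at 18.7 ± 2.82 and 13.6 ± 2.59 CPM (adjusted *P* = 0.189, edgeR).

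Of 14365 genes tested, 1190 were higher in late MEFs, which is 8.28% of the genes tested, and 702 were lower, 4.89% (adjusted *P* under 0.05, edgeR's quasi-likelihood test). The CPM of the 4 late libraries lay wholly above those of the 4 early libraries for 1105 of the higher genes and wholly below for 607 of the lower genes. A change of at least 2-fold was reached by 658 higher and 286 lower genes, and one of at least 8-fold by 81 and 23. The median log2 fold change over all genes was 0.01. Several single libraries weighed on the count of 1892 called genes, which was 885 without early library 46, 911 without early library 47, 1103 without late library 58 and 1146 without late library 59. Without both 46 and 47 it was 318, of which 251 were higher. Of the 150 genes named here that passed, 76 also passed without both.

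**Figure D1:**
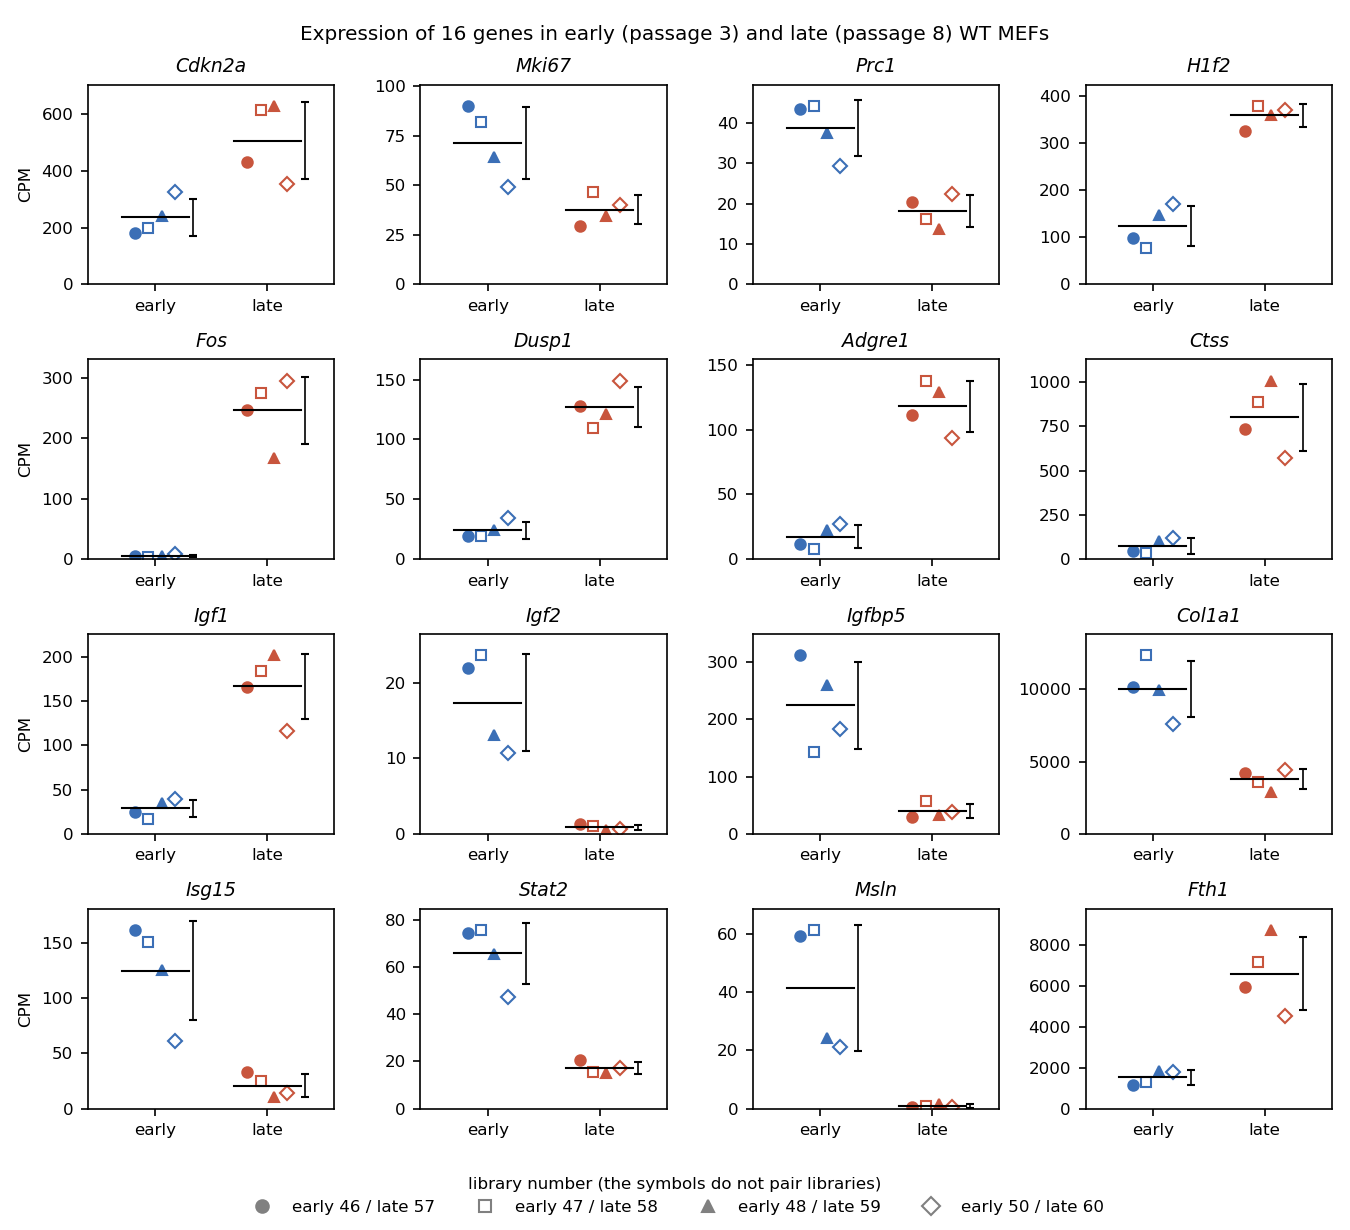
CPM of 16 genes in each of the 4 early (blue) and 4 late (red) WT libraries on linear axes that start at 0, with the mean as a line and the SD as a bar beside it. *Fos*, *Dusp1*, *Ctss*, *Adgre1*, *Igf1* and *Fth1* lay higher in all late libraries, and *Igf2*, *Igfbp5*, *Col1a1*, *Isg15*, *Stat2* and *Msln* lay lower in all of them.

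Genes of cell division were lower in late MEFs. Of 58 genes of mitosis and the spindle, 29 fell and none rose, 50% fallen against 4.89% of all genes. The median change was −0.70 on the log2 scale, against 0.01 over all genes. *Anln*, an actin-binding protein of the cleavage furrow, was at 66.7, 62.6, 51.2 and 46.3 CPM in early MEFs and 29.9, 19.9, 21.7 and 31.0 CPM in late MEFs. No late library reached the lowest early one (log2 fold change −1.15 ± 0.20 (SE), adjusted *P* = 0.00355, edgeR). *Prc1*, which bundles microtubules of the central spindle, was at 43.5, 44.3, 37.6 and 29.3 CPM in early and 20.4, 16.2, 13.8 and 22.4 CPM in late MEFs (log2 fold change −1.09 ± 0.20 (SE), adjusted *P* = 0.00520, edgeR). *Cenpe*, a kinetochore motor, and *Ncapg*, a condensin subunit, fell by similar amounts, with log2 fold changes of −0.96 and −1.08 (adjusted *P* = 0.00461 and 0.00834, edgeR). *Mki67*, which encodes the proliferation antigen Ki67, was at 90.1, 82.0, 64.5 and 49.0 CPM in early and 29.4, 46.5, 34.5 and 40.1 CPM in late MEFs. The lowest early library, 50, lay just above the highest late one, 58 (log2 fold change −0.92 ± 0.19 (SE), adjusted *P* = 0.00952, edgeR). *Ccnb1*, cyclin B1, fell from 20.4 ± 4.09 to 10.69 ± 1.99 CPM (adjusted *P* = 0.0102, edgeR), whereas its kinase partner *Cdk1* was at 81.6 ± 9.15 and 61.99 ± 7.19 CPM (adjusted *P* = 0.0963, edgeR). The mitotic count was 12 without early library 46, 14 without early library 47, 17 without late library 59 and 0 without both 46 and 47. The median was then −0.45. Mitotic levels were highest in early 46 and 47, the libraries with the lowest levels of short transcripts, and with the offset for transcript length the count was 29.

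The genes of DNA replication moved less. Of 54 replication and nucleotide synthesis genes, 5 fell and none rose (median −0.31), 9.26% fallen against 4.89% of all genes. The MCM helicase subunits *Mcm2* (35.3 ± 7.47 and 27.6 ± 4.64 CPM) and *Mcm3* (35.0 ± 3.83 and 26.8 ± 4.76 CPM) did not pass the test (adjusted *P* = 0.217 and 0.136, edgeR). *Uhrf1*, which maintains DNA methylation behind the fork, fell by 0.64 on the log2 scale and *Tyms*, thymidylate synthase, by 0.60 (adjusted *P* = 0.0209 and 0.0218, edgeR). *Uhrf1* did not pass without early library 46, 47 or 48 or late library 59, and *Tyms* not without early library 46 or late library 58 (adjusted *P* of up to 0.0649 and 0.0684). The count of replication genes that fell was 0 without early library 46, 1 without early library 47, 2 without late library 57, 58 or 59, 13 without early library 50, 10 without late library 60 and 0 without both 46 and 47. In related lists the share that fell was near that of all genes. Of 40 DNA repair genes 2 were lower, 5% against 4.89% of all genes (0 without 46, 47, 57, 58 or 59, 1 without 48, 9 without 50 and 0 without both 46 and 47). Of 32 lamins and chromatin proteins 1 was higher and 2 were lower, 3.1% and 6.25% against 8.28% and 4.89% of all genes. The lower count of lamins and chromatin proteins was 1 without 46, 47, 48, 57 or 58, 5 without 60, 7 without 50 and 1 without both 46 and 47. Among them, *Hmga1*, an architectural chromatin protein, fell from 56.5 ± 9.09 to 30.2 ± 2.84 CPM (log2 fold change −0.90 ± 0.13 (SE), adjusted *P* = 0.00131, edgeR). *Lmnb1*, the lamin whose loss is a common mark of senescence, was at 32.3, 30.4, 25.9 and 18.96 CPM in early MEFs and 11.6, 18.5, 17.4 and 23.7 CPM in late MEFs. Late library 60 lay above early library 50, and the difference did not pass (log2 fold change −0.59 ± 0.26 (SE), adjusted *P* = 0.149, edgeR).

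Histone genes went the other way. Of 57 replication-dependent histone genes only 15 passed the filter on low counts, and 8 of these rose (median 1.602), 53.3% against 8.28% of all genes. *H1f2*, a linker histone, was at 98.8, 77.5, 146 and 171 CPM in early MEFs and 325, 379, 359 and 371 CPM in late MEFs (log2 fold change 1.54 ± 0.21 (SE), adjusted *P* = 0.00106, edgeR). *H1f3*, *H4c9* and *H2ac6* rose by 2.09, 2.18 and 1.99 on the log2 scale, to late means of 11.3 ± 1.41, 15.7 ± 4.46 and 8.08 ± 1.65 CPM. Most transcripts of these genes end without a poly(A) tail, so a library made from poly(A) RNA holds the polyadenylated part of them, and the share of all histone RNA that this was could not be measured here. They are also short, and they lay lowest in early libraries 46 and 47. The count was 4 without early library 46, 5 without early library 47, 4 without late library 59, 2 without both early libraries and 8 with the offset for length.

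The regulators of the arrest changed in part. *Cdkn2a* was at 181, 198, 239.9 and 327 CPM in early MEFs and 432, 615, 629.6 and 353 CPM in late MEFs, so that every late library lay above every early one, library 60 by the least. The rise was 2.15-fold (log2 fold change 1.10 ± 0.25 (SE), adjusted *P* = 0.0156, edgeR), and the adjusted *P* rose to as much as 0.0604 without early library 46, early library 47 or late library 59. Without both 46 and 47 the log2 fold change of *Cdkn2a* was 0.82 and it did not pass (adjusted *P* = 0.234, edgeR). The counts per gene do not separate the p16INK4a transcript from the ARF transcript. *Cdkn2b*, which encodes the related inhibitor p15INK4b, was at 109.5 ± 12.9 and 164 ± 47.1 CPM (adjusted *P* = 0.0612, edgeR, and 0.00947 without late library 60). *Cdkn1a*, the p53 target that encodes p21, was at 398, 469, 633 and 601 CPM in early and 830.0, 627, 861 and 596 CPM in late MEFs, and these ranges overlapped (adjusted *P* = 0.0953, edgeR). *Trp53* itself was at 90.1 ± 5.43 and 86.5 ± 13.0 CPM (adjusted *P* = 0.795, edgeR). Of 36 genes of the p53 pathway, 8 rose and 1 fell (median 0.24). They included *Mdm2*, the ubiquitin ligase that restrains p53, at 97.4, 93.8, 156 and 171 CPM in early and 244, 251, 298 and 236 CPM in late MEFs (log2 fold change 0.99 ± 0.19 (SE), adjusted *P* = 0.00536, edgeR). *Fas*, a death receptor, rose from 25.4 ± 3.60 to 50.2 ± 10.8 CPM. *Rprm*, an inhibitor of entry into mitosis, rose from 13.6 ± 1.88 to 30.6 ± 8.65 CPM, and *Plk3*, a stress kinase, from 12.5 ± 2.21 to 21.4 ± 3.24 CPM (adjusted *P* = 0.00248, 0.00303 and 0.0119, edgeR). The shares of p53 genes that rose and fell were 22.2% and 2.78%, against 8.28% and 4.89% of all genes. The count of p53 genes that rose was 4 without early library 46, 4 without early library 47, 5 without late library 58 and 2 without both 46 and 47. A list of 33 cell cycle regulators, which also holds *Cdkn2a* and *Cdkn2b*, had 3 risen and 1 fallen, 9.09% and 3.03% against 8.28% and 4.89% of all genes. Beside *Cdkn2a* these were *Rb1* (15.03 ± 0.507 and 23.2 ± 4.40 CPM), *E2f1* (36.5 ± 5.03 and 49.2 ± 6.28 CPM) and, lower, *Foxm1*, the transcription factor of mitotic genes (12.9 ± 3.64 and 6.61 ± 1.63 CPM). None of these 3 passed without early library 46 (adjusted *P* = 0.0510, 0.161 and 0.129, edgeR), and *E2f1* and *Foxm1* passed in 2 of the 8 fits that left out a library. The risen count of the list was 0 without 46, 1 without 47 or 59, 5 without 60 and 0 without both 46 and 47.

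Promoters of mitotic genes are shown because many of these genes fell together. The hexamer TTTGAA, searched on both strands, is the core of the cell cycle genes homology region at promoters of late cell cycle genes. RefSeq windows of GRCm38.p6, from 250 bases before to 50 bases after a transcript start, were found for 49 of the 58 mitotic genes tested, and 35 of these held the hexamer in at least 1 window, 21 of the 24 that fell and 14 of the 25 that did not pass. Counted by window, 38 of 53 windows of the list held it, 71.7%, against 17.9% of all 32851 windows. The windows of *Prc1* (chr7:80294226-80294525, plus strand), *Ncapg* (chr5:45669675-45669974, plus strand) and *Mki67* (chr7:135716330-135716629, minus strand) follow, 5′ to 3′ on the strand of the gene, with each match in capitals. The match began at base −30 from the start in *Prc1* and *Ncapg*, and at −116 and −98 in *Mki67*. *Prc1* has another annotated start, whose window (chr7:80294201-80294500, plus strand) is not shown and held the match at −5.
Prc1: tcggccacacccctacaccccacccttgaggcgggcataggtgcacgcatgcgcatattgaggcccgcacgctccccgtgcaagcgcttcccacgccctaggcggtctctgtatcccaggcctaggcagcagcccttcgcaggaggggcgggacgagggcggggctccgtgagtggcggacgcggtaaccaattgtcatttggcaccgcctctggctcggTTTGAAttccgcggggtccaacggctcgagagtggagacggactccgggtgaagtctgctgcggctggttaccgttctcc
Ncapg: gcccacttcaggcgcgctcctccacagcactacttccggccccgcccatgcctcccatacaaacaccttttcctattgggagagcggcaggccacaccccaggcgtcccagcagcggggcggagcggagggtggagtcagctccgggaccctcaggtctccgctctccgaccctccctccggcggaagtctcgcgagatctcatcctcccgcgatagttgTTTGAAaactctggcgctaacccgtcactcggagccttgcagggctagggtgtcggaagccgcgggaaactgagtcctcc
Mki67: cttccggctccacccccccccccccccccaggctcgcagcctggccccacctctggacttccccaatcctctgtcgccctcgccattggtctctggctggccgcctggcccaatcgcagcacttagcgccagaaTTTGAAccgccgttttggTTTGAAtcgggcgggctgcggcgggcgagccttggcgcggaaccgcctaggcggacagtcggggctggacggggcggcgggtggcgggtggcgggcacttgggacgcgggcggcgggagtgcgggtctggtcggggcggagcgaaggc

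Macrophage markers had the highest median change of the lists. The list held 25 genes, of which 24 were tested and 23 rose, 95.8% of those tested against 8.28% of all genes. The median change was 2.59 on the log2 scale, against 0.01 over all genes. All 24 lay higher in every late library than in every early one. Of the 1190 genes called higher 1105 did so, but the test had already picked these genes. The share over all genes tested is not given here. The summed level of the macrophage markers was 674 to 2283 CPM in early libraries and 8639 to 14684 CPM in late libraries. In bulk RNA more macrophages and more of this RNA per cell cannot be told apart. *Adgre1*, which encodes the macrophage antigen F4/80, was at 11.7, 7.81, 22.3 and 27.1 CPM in early MEFs and 112, 138, 129 and 93.6 CPM in late MEFs (log2 fold change 2.78 ± 0.41 (SE), adjusted *P* = 0.00221, edgeR). *Cd68*, a lysosomal glycoprotein of macrophages, was at 22.9, 17.7, 37.0 and 39.6 CPM in early and 162, 179, 136 and 109.8 CPM in late MEFs (log2 fold change 2.33 ± 0.31 (SE), adjusted *P* = 0.00110, edgeR). *Spi1*, the myeloid transcription factor PU.1, rose from 5.55 ± 3.19 to 43.5 ± 8.80 CPM and *Cybb*, a subunit of the phagocyte oxidase, from 8.57 ± 3.88 to 76.2 ± 19.9 CPM (adjusted *P* = 0.00104 and 0.00134, edgeR). In *Adgre1* and *Cd68*, early libraries 46 and 47 were lowest and early libraries 48 and 50 lay between them and the late libraries. The number of markers that rose was 19 to 23 as single libraries were left out, and 13 without both 46 and 47, with a median of 2.07. Of 21 markers of other leukocytes and 10 of erythroid cells none passed the filter on low counts, and their summed levels reached at most 0.831 and 0.849 CPM in a library.

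Several of the largest rises among all genes were of genes known from macrophages and osteoclasts. *Cd5l*, which encodes a secreted protein of tissue macrophages, had 0, 1, 1 and 0 counts in early libraries and 28, 44, 56 and 85 in late libraries, a ratio of summed counts of 117 with a 95% counting interval of 32.0 to 974 (adjusted *P* = 3.85e-04, edgeR). *Atp6v0d2*, a proton pump subunit of osteoclasts and macrophages, was at 0, 0.124, 0.588 and 0.267 CPM in early and 4.99, 7.98, 6.95 and 7.30 CPM in late MEFs (log2 fold change 4.79 ± 0.57 (SE), adjusted *P* = 5.93e-04, edgeR). *Wfdc17*, a small secreted protein, was at 0.842, 0.620, 3.20 and 4.87 CPM in early and 40.5, 89.0, 80.6 and 47.96 CPM in late MEFs (log2 fold change 4.77 ± 0.71 (SE), adjusted *P* = 0.00232, edgeR). *Serpinb6c* had a ratio of 35.5 with an interval of 13.5 to 132, from 4 counts over the early and 129 over the late libraries. *Shisa9*, whose product binds AMPA receptors of neurons, was at 0 in 3 early libraries and at 3.37, 3.42, 4.30 and 1.86 CPM in late MEFs (adjusted *P* = 0.00388, edgeR, and 0.0517 without early libraries 46 and 47). The counting intervals cover counting error only.

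Complement and lysosomal genes rose beside these markers. Of 23 complement genes and complement receptors 9 rose and none fell (median 0.82), 39.1% risen against 8.28% of all genes. Of the 23, 4 were also on the macrophage list, which left 5 risen of 19 others. *C1qa* and *C1qb*, subunits of C1q, were at 60.7, 34.1, 113 and 168 and 65.5, 37.3, 118 and 147 CPM in early MEFs, and at 409, 614, 539 and 364 and 416, 574, 463 and 356 CPM in late MEFs. *C1qa* did not pass without early library 46, early library 47 or late library 59 (adjusted *P* of up to 0.0731) and *C1qb* not without 46 (0.0504). The receptor *C3ar1* and the integrin chains *Itgb2* and *Itgam*, which form complement receptor 3, rose by 2.53, 2.31 and 2.59 on the log2 scale (adjusted *P* = 0.00223, 0.00323 and 0.00329, edgeR). *Colec12*, a scavenger receptor of the collectin family, rose from 197 ± 28.5 to 334 ± 38.8 CPM. Of 56 lysosome and autophagy genes, 17 rose and none fell (median 0.22), 30.4% risen against 8.28% of all genes. None of the 56 is on the macrophage list. *Lipa*, lysosomal acid lipase, was at 88.4, 80.9, 91.6 and 86.7 CPM in early and 168, 214, 181 and 148 CPM in late MEFs (log2 fold change 1.03 ± 0.12 (SE), adjusted *P* = 6.33e-04, edgeR). The cathepsins *Ctsf*, *Ctsb* and *Ctsd* rose by 1.07, 0.92 and 1.36 on the log2 scale (adjusted *P* = 0.00220, 0.00293 and 0.00671, edgeR). The membrane proteins of the same organelle, *Lamp1* (1222 ± 209 and 1321 ± 138 CPM) and *Lamp2* (780.2 ± 57.2 and 805 ± 74.1 CPM), overlapped between the groups. *Ctss*, a cathepsin of antigen-presenting cells, was at 42.6, 32.3, 102 and 121 CPM in early and 735, 886, 1008 and 573 CPM in late MEFs (log2 fold change 3.43 ± 0.51 (SE), adjusted *P* = 0.00222, edgeR). The lysosome count was 11 without early library 46 or 47 and 3 without both, and the complement count was 6 and 8 without 46 or 47 and 3 without both. The part of macrophages in these rises was not tested.

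**Figure D2:**
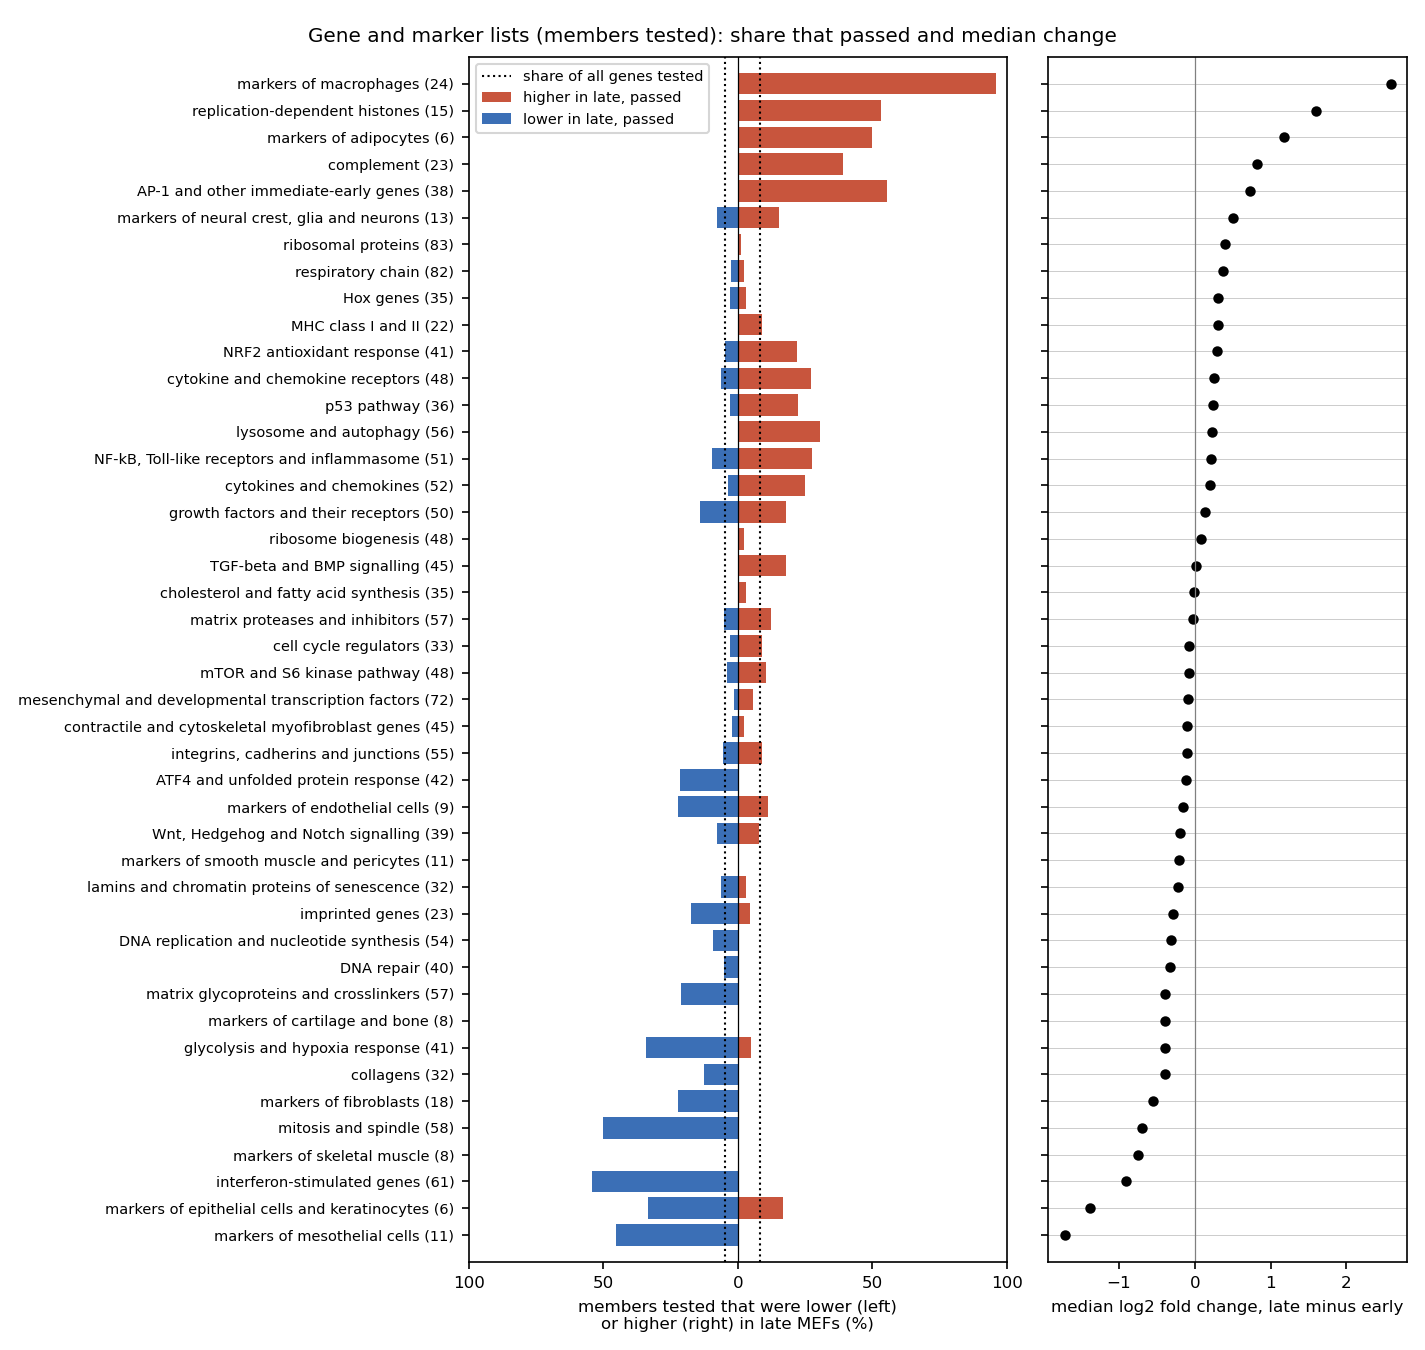
For each gene list and marker list, with the number of members tested in brackets, the left panel gives the percentage of members that were lower (blue) or higher (red) in late MEFs at an adjusted *P* under 0.05, beside the shares of all genes tested, 4.89% and 8.28% (dotted lines), and the right panel the median log2 fold change. Macrophage markers stood at the top, and interferon-stimulated genes, mitotic genes and mesothelial markers near the bottom.

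Immediate-early genes, which cells switch on within minutes of a stimulus, were higher in late MEFs. Of 38 tested, 21 rose and none fell (median 0.73), 55.3% risen against 8.28% of all genes. The risen count was 16 to 21 as single libraries were left out and 12 without both 46 and 47. *Fos*, a subunit of the transcription factor AP-1, was at 4.99, 3.66, 4.90 and 7.61 CPM in early MEFs and 246, 275, 168 and 295 CPM in late MEFs (log2 fold change 5.54 ± 0.28 (SE), adjusted *P* = 1.69e-06, edgeR). The related *Fosb* was at 1.40, 3.10, 1.502 and 1.40 CPM in early and 89.2, 80.2, 56.2 and 118 CPM in late MEFs (log2 fold change 5.53 ± 0.35 (SE), adjusted *P* = 1.39e-05, edgeR). The lowest late library of *Fos*, at 168 CPM, lay far above the highest early one, at 7.61 CPM. *Atf3*, a stress-induced factor, was at 4.66, 5.58, 4.96 and 7.08 CPM in early and 35.7, 45.3, 31.2 and 42.3 CPM in late MEFs (log2 fold change 2.79 ± 0.17 (SE), adjusted *P* = 7.66e-06, edgeR). *Dusp1*, a phosphatase that switches off MAP kinases, was at 19.1, 18.97, 23.9 and 33.99 CPM in early and 128, 109, 121 and 149 CPM in late MEFs (log2 fold change 2.40 ± 0.18 (SE), adjusted *P* = 3.89e-05, edgeR). *Egr1*, a zinc finger factor, rose from 58.5 ± 7.19 to 175 ± 51.0 CPM (adjusted *P* = 9.47e-04, edgeR). *Ppp1r15a*, which directs a phosphatase to the translation factor eIF2α, was at 38.5, 52.2, 51.6 and 68.4 CPM in early and 127, 95.5, 98.7 and 122 CPM in late MEFs (log2 fold change 1.07 ± 0.16 (SE), adjusted *P* = 0.00181, edgeR). In WT MEFs of the *S6K1* set 17 immediate-early genes moved the other way with passage, as described further on. The time between the last change of medium and lysis is not given in the sources used here.

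Of 45 genes of TGF-β and BMP signalling 8 rose and none fell (median 0.01), 17.8% risen against 8.28% of all genes. The risen count was 4 without 46, 47 or 58 and 4 without both 46 and 47. *Id1*, *Id2* and *Id3*, inhibitors of basic helix-loop-helix factors and targets of BMP signalling, rose by 1.59, 2.07 and 0.59 on the log2 scale (adjusted *P* = 4.14e-04, 1.24e-04 and 0.0102, edgeR), and *Id2* was at 26.0, 21.1, 38.0 and 32.5 CPM in early and 120.3, 138, 141 and 93.7 CPM in late MEFs. The receptor *Tgfbr1* rose from 25.6 ± 3.73 to 47.5 ± 4.50 CPM (adjusted *P* = 0.00155, edgeR) and the ligand *Tgfb1* was at 74.7 ± 11.9 and 92.1 ± 12.3 CPM (adjusted *P* = 0.180, edgeR). *Hes1*, a repressor induced by Notch, was at 48.1, 53.9, 93.7 and 81.4 CPM in early and 202, 217, 260.4 and 226 CPM in late MEFs (log2 fold change 1.71 ± 0.21 (SE), adjusted *P* = 7.93e-04, edgeR). The kinase *Sgk1*, which takes signals from mTOR complex 2, was at 105, 130.2, 112 and 96.0 CPM in early and 285, 159, 265 and 143 CPM in late MEFs, and its call did not stand without early library 46 or late library 59 (adjusted *P* of up to 0.0611). Among 48 genes listed for the mTOR and S6 kinase pathway 5 rose and 2 fell, 10.4% and 4.17% against 8.28% and 4.89% of all genes. The 2 that fell were *Ddit4* and *Pdk1*. In the mouse *Pdk1* is the pyruvate dehydrogenase kinase, which is not the kinase PDK1 of this pathway. Within the pathway the risen count was 0 without 46, 1 without 47, 58 or 59, 3 without 48 or 60 and 0 without both 46 and 47.

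Cytokines, their receptors and the NF-κB pathway rose in part and fell in part. Of 52 cytokines and chemokines 13 rose and 2 fell (median 0.20), 25% and 3.85% against 8.28% and 4.89% of all genes. The risen count was 6 without both 46 and 47, and the fallen count was 1 without 46, 47, 48, 59 or 60, 5 without 57 and 0 without both 46 and 47. *Cxcl2*, a neutrophil chemokine, was at 0.224, 0.186, 0.131 and 0.134 CPM in early MEFs and 6.55, 7.63, 3.25 and 2.65 CPM in late MEFs (log2 fold change 4.81 ± 0.53 (SE), adjusted *P* = 3.12e-04, edgeR). *Ccl3*, a chemokine of activated macrophages, was at 1.63, 1.30, 3.53 and 4.54 CPM in early and 27.4, 40.5, 22.96 and 17.7 CPM in late MEFs (log2 fold change 3.31 ± 0.40 (SE), adjusted *P* = 7.43e-04, edgeR). *Il1b* had 1, 0, 0 and 1 counts in early libraries and 30, 30, 20 and 16 in late libraries, a ratio of 52.8 with a 95% counting interval of 14.2 to 442 (adjusted *P* = 0.00131, edgeR). Its family member *Il1a* was below the filter, with 0, 0, 1 and 0 counts in early and 1, 0, 0 and 3 in late libraries, so that a change was not detectable at this depth. *Il6*, a hallmark of the SASP, was at 1.80, 1.98, 6.66 and 9.75 CPM in early MEFs and 3.62, 3.42, 2.87 and 2.99 CPM in late MEFs. The highest values were those of early libraries 48 and 50, and the difference did not pass (adjusted *P* = 0.442, edgeR). *Il15* rose from 1.47 ± 0.343 to 6.46 ± 1.29 CPM and *Cxcl14*, a chemokine of fibroblasts, fell from 185 ± 17.7 to 68.8 ± 32.3 CPM (adjusted *P* = 0.00105 and 0.00855, edgeR).

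Of 48 cytokine receptors 13 rose and 3 fell, 27.1% and 6.25% against 8.28% and 4.89% of all genes. For receptors the risen count was 8 without 46 and 6 without both 46 and 47, and the fallen count was 7 without 57 and 0 without both 46 and 47. The largest rises were of *Ccrl2*, an atypical chemokine receptor, at 0.168, 0.248, 0.327 and 0.334 CPM in early and 7.48, 9.91, 8.38 and 5.90 CPM in late MEFs (log2 fold change 4.85 ± 0.42 (SE), adjusted *P* = 7.40e-05, edgeR), and of the CXCL12 receptor *Cxcr4*. The latter was at 1.122, 1.05, 2.42 and 3.00 CPM in early and 25.6, 32.4, 37.4 and 21.2 CPM in late MEFs (log2 fold change 3.95 ± 0.43 (SE), adjusted *P* = 3.85e-04, edgeR). *Rgs1*, which ends signals of such receptors in leukocytes, was at 0.449, 0.496, 1.502 and 2.54 CPM in early and 62.03, 86.0, 69.0 and 41.7 CPM in late MEFs (log2 fold change 5.72 ± 0.59 (SE), adjusted *P* = 3.85e-04, edgeR). *Csf2rb2*, a signalling chain of the interleukin-3 receptor in blood cells, rose from 2.89 ± 1.70 to 19.9 ± 2.84 CPM and *Il10rb* from 23.7 ± 4.27 to 47.8 ± 2.40 CPM. The 3 that fell were *Il4ra* (103 ± 15.5 to 60.2 ± 10.6 CPM), *Osmr* (192 ± 26.9 to 113 ± 19.2 CPM) and *Il6st* (496 ± 131 to 223 ± 69.7 CPM), all of which fibroblasts express, *Osmr* and *Il6st* as the chains of the oncostatin M receptor. In the NF-κB, Toll-like receptor and inflammasome list 14 of 51 rose and 5 fell, 27.5% and 9.80% against 8.28% and 4.89% of all genes. Those that fell included the adaptor *Sting1* and the RNA sensors *Ddx58* and *Ifih1*. The 2 sensors are also counted among the interferon-stimulated genes below. The risen count was 9 without 46, 47, 57 or 58 and 6 without both 46 and 47, and the fallen count was 3 without 46, 47, 58 or 59 and 1 without both 46 and 47. The subunits *Rela* (61.3 ± 1.70 and 67.5 ± 5.76 CPM) and *Relb* (16.5 ± 0.554 and 19.6 ± 1.89 CPM) did not pass (adjusted *P* = 0.438 and 0.161, edgeR). *Nfkbia*, an inhibitor that the pathway induces, was at 25.3, 28.9, 30.0 and 27.2 CPM in early and 62.8, 66.2, 83.4 and 58.3 CPM in late MEFs. It and *Tnfaip3*, another such inhibitor, at 2.35 ± 0.767 and 10.4 ± 1.49 CPM, rose by 1.2801 and 2.14 on the log2 scale (adjusted *P* = 8.16e-04 and 0.00141, edgeR). *Casp1*, the inflammasome protease, and *Tlr7*, a receptor of single-stranded RNA in phagocytes, rose by 3.46 and 2.79 (adjusted *P* = 0.00223 and 0.00305, edgeR). The macrophage markers, with 23 of 24 risen, were high in the same libraries, at 8639 to 14684 CPM in sum, and their part in these changes was not tested.

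Interferon-stimulated genes fell. Of 61 tested 33 were lower and none was higher, 54.1% lower against 4.89% of all genes. The median change was −0.90 on the log2 scale, against 0.01 over all genes. *Isg15*, a ubiquitin-like modifier, was at 161, 151, 125 and 61.2 CPM in early MEFs and 33.04, 25.2, 10.9 and 13.7 CPM in late MEFs (log2 fold change −2.59 ± 0.39 (SE), adjusted *P* = 0.00248, edgeR). *Usp18*, the protease that removes it and restrains the interferon receptor, was at 39.5, 36.0, 32.7 and 18.4 CPM in early and 8.04, 5.20, 1.36 and 2.79 CPM in late MEFs (log2 fold change −2.85 ± 0.44 (SE), adjusted *P* = 0.00265, edgeR). *Stat2*, part of the factor ISGF3 that activates these genes, was at 74.5, 75.4, 65.3 and 47.4 CPM in early and 20.6, 15.5, 14.95 and 17.31 CPM in late MEFs (log2 fold change −1.94 ± 0.17 (SE), adjusted *P* = 7.40e-05, edgeR). In each of these genes early library 50 was the lowest early one and still lay above all late libraries. *Irf7*, which amplifies interferon production, fell from 15.4 ± 6.26 to 3.89 ± 0.997 CPM, *Ifit1* from 88.5 ± 35.4 to 18.02 ± 11.4 CPM and the guanosine triphosphatase *Iigp1* from 8.62 ± 4.53 to 1.08 ± 0.695 CPM (adjusted *P* = 0.00250, 0.0119 and 0.00614, edgeR). *Ifit2*, the neighbour of *Ifit1*, was at 25.5 ± 5.51 and 24.3 ± 2.29 CPM (adjusted *P* = 0.808, edgeR). The RNA sensors *Ddx58* (RIG-I) and *Ifih1* (MDA5) and the adaptor of DNA sensing *Sting1* fell by 1.25, 1.18 and 1.01 on the log2 scale (adjusted *P* = 0.00537, 0.0127 and 0.00203, edgeR). The count of fallen genes was 20 without early library 46, 20 without early library 47 and 5 without both, when the median was −0.59. Of 22 MHC genes, which interferons also induce, none fell and 2 rose, 9.09% against 8.28% of all genes, and the risen count was 1 without 46, 47, 50, 57, 58 or 59, 6 without 60 and 0 without both 46 and 47. *H2-D1* rose from 149 ± 6.10 to 243 ± 20.8 CPM (adjusted *P* = 0.00250, edgeR). *H2-K1* was at 103 ± 4.57 and 140.0 ± 13.1 CPM and kept its call only in the fit without late library 60 among those that left out a library. *B2m*, the light chain of class I, was at 1194 ± 160.5 and 1749 ± 543 CPM (adjusted *P* = 0.114, edgeR, and 0.0132 without late library 60).

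Interferon-stimulated promoters are shown because of this shared fall. The letters GAAANNGAA belong to the interferon-stimulated response element that interferon regulatory factors bind. They were searched on both strands, and overlapping matches were counted. Windows were found for 47 of the 61 genes tested, and 28 held a match, 17 of the 24 that fell and 11 of the 23 that did not pass. Counted by window, 29 of 59 windows of the list held one, 49.2%, against 8.56% of all 32851 windows. *Isg15* (chr4:156200769-156201068, minus strand) held matches that began at −78, −72 and −66 from the start, *Ifit1* (chr19:34640639-34640938, plus strand) at −109, −103 and −84, and *Stat2* (chr10:128270248-128270547, plus strand) at −221. They are written 5′ to 3′ on the strand of the gene, with the bases covered by matches in capitals.
Isg15: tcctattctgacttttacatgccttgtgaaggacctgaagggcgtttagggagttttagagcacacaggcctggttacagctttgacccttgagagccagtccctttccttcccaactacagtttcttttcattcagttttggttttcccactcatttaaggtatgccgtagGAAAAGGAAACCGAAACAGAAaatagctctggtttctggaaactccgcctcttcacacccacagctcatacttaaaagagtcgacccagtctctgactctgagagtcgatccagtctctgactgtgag
Ifit1: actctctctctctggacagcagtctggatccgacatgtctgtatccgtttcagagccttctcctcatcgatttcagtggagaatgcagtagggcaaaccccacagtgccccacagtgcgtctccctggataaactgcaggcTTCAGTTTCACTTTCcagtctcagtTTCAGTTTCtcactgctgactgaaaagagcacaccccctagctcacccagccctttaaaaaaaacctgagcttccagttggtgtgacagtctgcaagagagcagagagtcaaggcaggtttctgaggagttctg
Stat2: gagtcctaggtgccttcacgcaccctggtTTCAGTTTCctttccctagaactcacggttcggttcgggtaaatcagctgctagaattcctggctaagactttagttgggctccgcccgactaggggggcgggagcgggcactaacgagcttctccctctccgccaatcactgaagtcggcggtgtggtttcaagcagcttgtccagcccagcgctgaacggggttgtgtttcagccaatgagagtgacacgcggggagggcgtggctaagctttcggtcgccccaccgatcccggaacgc

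Some genes of the fibroblast and its matrix fell in late MEFs. Of 18 fibroblast markers 4 fell and none rose (median −0.55), 22.2% fallen against 4.89% of all genes. All 4 were collagen genes, and no other marker of the list passed. The summed level of the 18 markers was 35399.7 to 46331 CPM in early and 24290.2 to 31593 CPM in late libraries. Between the groups this was the reverse order to the macrophage markers. Within the late group it was not, as library 60 was the lowest late library in both sums. The fallen count was 7 without 50 and 1 without both 46 and 47. *Col1a1*, the major chain of collagen I, was at 10149, 12353, 9980.2 and 7639 CPM in early MEFs and 4223, 3615, 2917 and 4453 CPM in late MEFs (log2 fold change −1.40 ± 0.21 (SE), adjusted *P* = 0.00183, edgeR). Its partner *Col1a2* fell from 8559 ± 1292 to 4608 ± 216 CPM and *Col5a1* from 1696 ± 189 to 942 ± 162 CPM (adjusted *P* = 0.00350 and 0.0110, edgeR). *Col3a1*, the chain of collagen III, was at 5382, 4799, 2688 and 2395 CPM in early and 3012, 1237, 1121 and 1213 CPM in late MEFs, with late library 57 above early libraries 48 and 50 (adjusted *P* = 0.0568, edgeR, 0.00858 without library 57 and 0.0350 without early library 50). Altogether 4 of 32 collagens fell and none rose, 12.5% fallen against 4.89% of all genes. They were the same 4 genes as the fallen fibroblast markers. For collagens the fallen count was 7 without 50, 10 without 57 and 1 without both 46 and 47. Of 57 glycoproteins and crosslinking enzymes 12 fell and none rose, 21.1% fallen against 4.89% of all genes. *Fbn2* and *Fbn1*, the fibrillins of elastic microfibrils, fell by 2.02 and 1.37 on the log2 scale, *Eln*, elastin, by 2.53, *Loxl3*, a lysyl oxidase, by 1.33, and *Cthrc1*, a secreted protein of activated fibroblasts, by 2.21 (adjusted *P* = 0.00529, 0.0110, 0.0196, 0.00407 and 0.00737, edgeR). *Fn1*, fibronectin, was at 4937 ± 1030.0 and 4228 ± 919 CPM and did not pass (adjusted *P* = 0.491, edgeR), while *Itga5*, a chain of its receptor, fell from 429 ± 82.3 to 203 ± 63.0 CPM (adjusted *P* = 0.00867, edgeR). The count of fallen glycoproteins was 5 without early library 46, 7 without early library 47, 6 without late library 59 and 0 without both early libraries, and *Eln* did not pass without 46 or 59 (adjusted *P* of up to 0.0632).

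Of 57 matrix proteases and inhibitors 7 rose and 3 fell, 12.3% and 5.26%, near the 8.28% and 4.89% of all genes. Those that rose included *Ctss*, which is also on the macrophage list, and *Ctsb* and *Ctsd*, which are also counted among the lysosomal genes. *Adam8*, a metalloprotease of leukocytes and macrophages, rose from 36.8 ± 8.68 to 104 ± 8.15 CPM and *Serpine2*, an inhibitor of thrombin, from 203 ± 67.6 to 406 ± 55.0 CPM. The metalloproteases *Mmp14* (1007 ± 58.1 to 688 ± 24.4 CPM), *Adam12* (32.5 ± 2.68 to 14.6 ± 4.80 CPM) and *Adamts4* (21.2 ± 5.88 to 8.93 ± 2.67 CPM) fell (adjusted *P* = 0.00657, 0.00355 and 0.0102, edgeR). For proteases and inhibitors the risen count was 4 without 46 and 3 without both 46 and 47, and the fallen count was 5 without 57 or 60 and 2 without both 46 and 47. *Serpine2* did not pass without early library 46 (0.0504). The contractile genes of myofibroblasts held 1 risen and 1 fallen gene among 45, 2.22% in each direction against 8.28% and 4.89% of all genes. *Acta2*, smooth muscle actin, was at 3261, 4239.9, 6569 and 7203 CPM in early MEFs and 4977, 3576, 5317 and 6949 CPM in late MEFs, which overlapped throughout (adjusted *P* = 0.951, edgeR).

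The insulin-like growth factors moved in opposite directions. *Igf1*, a growth factor and product of both fibroblasts and macrophages, was at 24.2, 17.2, 34.6 and 39.1 CPM in early MEFs and 166, 184, 202 and 116 CPM in late MEFs (log2 fold change 2.54 ± 0.26 (SE), adjusted *P* = 2.83e-04, edgeR). *Igf2*, the fetal member of the family, was at 21.996, 23.6, 13.1 and 10.8 CPM in early and 1.25, 0.998, 0.453 and 0.663 CPM in late MEFs (log2 fold change −4.34 ± 0.51 (SE), adjusted *P* = 6.12e-04, edgeR). Their binding protein *Igfbp5* was at 312, 142, 260.3 and 184 CPM in early and 29.6, 56.5, 33.7 and 37.7 CPM in late MEFs (log2 fold change −2.51 ± 0.26 (SE), adjusted *P* = 3.03e-04, edgeR). The antisense transcript *Igf2os* fell from 7.16 ± 2.82 to 0.846 ± 0.280 CPM (adjusted *P* = 0.00352, edgeR), and since the strand setting of the counting is not given in the sources used here, its reads and those of *Igf2* may not be separate. *Igf2r*, which clears IGF2, was at 401, 446, 337 and 338 CPM in early and 263, 252, 208 and 248.8 CPM in late MEFs. *Airn*, the noncoding RNA that overlaps it, fell from 5.10 ± 2.004 to 2.07 ± 0.688 CPM. Neither passed without early library 46, early library 47 or late library 59 (adjusted *P* of up to 0.0618 and 0.105), and *Airn* did not pass without late library 60 (0.0581). *Igf2* and *Igf2r* are imprinted. Of 23 imprinted genes 1 rose and 4 fell, 4.35% and 17.4% against 8.28% and 4.89% of all genes. The fallen count was 1 without 47, 2 without 46 or 59 and 2 without both 46 and 47, and the risen count was 0 without 46, 47, 58 or 59, 2 without 57 or 60 and 0 without both 46 and 47. *H19*, the noncoding RNA next to *Igf2*, was at 3864, 2922, 2208 and 1141 CPM in early MEFs and 1209.9, 301, 286 and 2382 CPM in late MEFs, an uneven set of late values that gave no call (adjusted *P* = 0.234, edgeR). *Meg3* fell from 1383 ± 213 to 966 ± 71.0 CPM, a call that stood in 3 of the 8 fits that left out a library. Of 50 growth factors and receptors 9 rose and 7 fell, 18% and 14% against 8.28% and 4.89% of all genes. The fallen count was 2 without 47, 3 without 46, 4 without 59 and 2 without both 46 and 47, and 4 rose without both 46 and 47. *Pdgfb* rose from 1.58 ± 0.413 to 6.57 ± 1.67 CPM, *Vegfd* from 31.7 ± 5.99 to 63.9 ± 11.9 CPM and the epidermal growth factor family member *Ereg* from 17.7 ± 1.22 to 38.3 ± 10.67 CPM (adjusted *P* = 0.00262, 0.00270 and 0.00222, edgeR). *Dnm3os*, a microRNA host RNA of embryonic mesenchyme, was among the falls with the smallest *P*, at 212, 230.3, 158 and 144 CPM in early and 62.2, 60.7, 59.6 and 63.1 CPM in late MEFs (log2 fold change −1.5996 ± 0.16 (SE), adjusted *P* = 2.23e-04, edgeR).

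**Figure D3:**
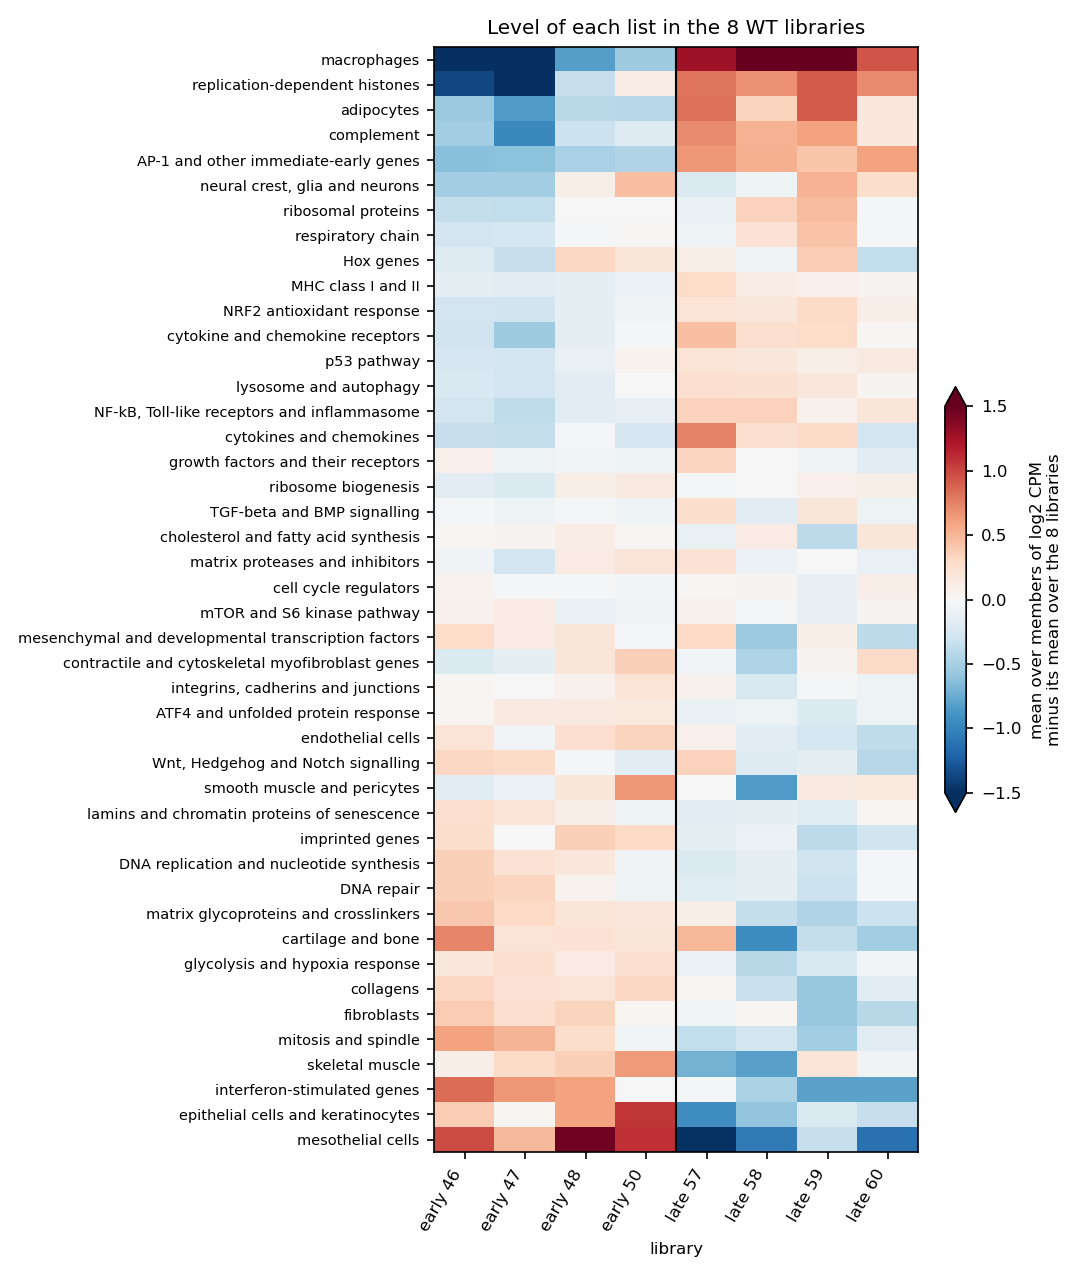
Mean over tested members of log2 CPM minus its mean over the 8 libraries, for each gene and marker list (rows) in each library (columns), with red above and blue below the mean. Macrophage markers were lowest in early 46 and 47 and interferon-stimulated genes highest in early 46, and the late libraries differed among themselves in the markers of cartilage, bone and smooth muscle.

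Of 41 genes of glycolysis and the hypoxia response, 14 fell and 2 rose (median −0.39), 34.1% and 4.88% against 4.89% and 8.28% of all genes. The lactate transporters *Slc16a1* and *Slc16a3* were among the members that fell. *Slc16a1* was at 67.7, 59.8, 69.6 and 52.3 CPM in early MEFs and 30.2, 26.9, 28.6 and 22.8 CPM in late MEFs (log2 fold change −1.20 ± 0.16 (SE), adjusted *P* = 9.02e-04, edgeR). *Slc16a3* was at 81.8, 83.1, 87.5 and 101 CPM in early and 32.2, 16.2, 26.7 and 44.3 CPM in late MEFs (log2 fold change −1.56 ± 0.27 (SE), adjusted *P* = 0.00401, edgeR). *Ddit4*, which represses mTOR complex 1 and is induced by hypoxia, fell from 57.9 ± 7.60 to 35.8 ± 3.69 CPM, *Bnip3*, a mitophagy receptor, from 103 ± 6.83 to 57.9 ± 15.1 CPM, and *Pdk1*, a brake on pyruvate oxidation, from 42.7 ± 6.80 to 27.01 ± 3.54 CPM (adjusted *P* = 0.00324, 0.00983 and 0.0135, edgeR). The first enzymes of the pathway, *Hk1* (92.6 ± 16.5 and 65.4 ± 14.7 CPM) and *Hk2* (52.8 ± 24.2 and 73.6 ± 18.7 CPM), did not pass (adjusted *P* = 0.0988 and 0.288, edgeR, and 0.0443 for *Hk1* without late library 60). *Epas1*, which encodes the hypoxia-inducible factor HIF-2α, rose from 2.96 ± 1.278 to 17.5 ± 3.48 CPM (adjusted *P* = 7.01e-04, edgeR). The count of fallen members was 8 without early library 46, 7 without early library 47, 8 without late library 58 or 59, and 2 without both early libraries.

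Of 42 genes of the ATF4 and unfolded protein responses 9 fell and none rose, 21.4% fallen against 4.89% of all genes. *Trib3*, a pseudokinase, was at 88.5, 107, 73.9 and 81.4 CPM in early and 30.5, 39.5, 28.0 and 36.3 CPM in late MEFs (log2 fold change −1.38 ± 0.19 (SE), adjusted *P* = 0.00102, edgeR). *Psat1*, an enzyme of serine synthesis, fell from 243 ± 33.1 to 151 ± 21.5 CPM and *Slc7a5*, the transporter of large neutral amino acids, from 86.3 ± 15.98 to 45.4 ± 10.04 CPM (adjusted *P* = 0.0102 and 0.0130, edgeR). *Atf4* itself (425 ± 66.6 and 337 ± 15.4 CPM) and *Ddit3*, which encodes the stress factor CHOP (100.4 ± 17.6 and 102 ± 21.5 CPM), did not pass (adjusted *P* = 0.0890 and 0.933, edgeR). The count was 4 without early library 46, early library 47 or late library 59, 5 without early library 48 or late library 58, and 1 without both 46 and 47. Of 41 antioxidant genes 9 rose and 2 fell. *Fth1*, the heavy chain of the iron store ferritin, was at 1161, 1288, 1847 and 1809.8 CPM in early MEFs and 5954, 7155, 8699 and 4539.9 CPM in late MEFs (log2 fold change 2.11 ± 0.26 (SE), adjusted *P* = 7.01e-04, edgeR). *Cat*, catalase, was at 47.7, 47.2, 38.5 and 42.1 CPM in early and 82.7, 76.6, 82.2 and 73.6 CPM in late MEFs (log2 fold change 0.84 ± 0.10 (SE), adjusted *P* = 7.43e-04, edgeR). The glutathione transferase *Gsta3* rose from 0.173 ± 0.114 to 2.48 ± 1.124 CPM, heme oxygenase *Hmox1* from 159 ± 50.4 to 287 ± 42.2 CPM, and the glutathione conjugate exporter *Abcc1* fell from 88.3 ± 17.1 to 48.2 ± 9.32 CPM (adjusted *P* = 0.00295, 0.0179 and 0.00855, edgeR). *Nfe2l2*, the factor NRF2 that the list is named for, and its inhibitor *Keap1* were at 112 ± 7.63 and 59.9 ± 2.14 CPM in early and 129 ± 19.96 and 64.1 ± 6.95 CPM in late MEFs, and neither passed. The count of risen members was 3 without early library 46 or 47, 4 without early library 48, late library 58 or late library 59, and 2 without both 46 and 47, and *Hmox1* did not pass without 46 or 47 (adjusted *P* of up to 0.0633).

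Most ribosomal and respiratory genes did not pass, although their medians were above 0. Of 83 ribosomal protein genes 80 had a positive log2 fold change (median 0.39) but only 1, *Rpl7*, passed. *Rpl7* was at 817 ± 69.4 and 1189.9 ± 148 CPM (adjusted *P* = 0.0478, edgeR) and lost its call whichever library was left out (adjusted *P* of up to 0.145). *Rpl31* was at 269.9 ± 28.8 and 348 ± 90.8 CPM. These transcripts are short, and with the offset for transcript length the median of the list was 0.06. The offset was fitted to these same libraries, and the part of transcript length in this change was not tested. Respiratory chain genes, 2 higher and 2 lower of 82, had a median of 0.37, and 0.10 with the offset. The higher count was 0 without 46, 48, 58 or 59, 1 without 47, 5 without 60, 6 without 57 and 0 without both 46 and 47. *Ndufa4l2*, a mitochondrial protein induced by hypoxia, fell from 4.71 ± 0.856 to 0.719 ± 0.443 CPM (adjusted *P* = 0.00622, edgeR), whereas *Cox5b* (126 ± 15.04 and 152 ± 19.8 CPM) and *Ndufb3* (46.2 ± 6.05 and 70.3 ± 14.7 CPM) did not pass (adjusted *P* = 0.256 and 0.0511, edgeR). *Ndufb3* passed without late library 57 or 60 (0.0441 and 0.0490). Ribosome biogenesis held 1 call among 48 genes, and its nucleolar members *Ncl* (713 ± 104 and 737 ± 100.2 CPM) and *Npm1* (920.2 ± 114 and 1125 ± 93.1 CPM) overlapped between the groups. Cholesterol and fatty acid synthesis held 1 call among 35 genes, *Insig1*. It rose from 40.1 ± 4.14 to 56.6 ± 8.64 CPM (adjusted *P* = 0.0212, edgeR, and up to 0.0865 without early library 46, early library 47 or late library 58). *Acat2* (47.2 ± 4.72 and 47.9 ± 3.43 CPM) did not pass.

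Markers of other tissues of the embryo were lower, higher or uneven in late MEFs. Mesothelial cells line the body cavities, and 5 of 11 of their markers fell and none rose (median −1.72), 45.5% fallen against 4.89% of all genes. The summed level of the mesothelial markers, in contrast, did not separate the groups, at 185 to 428 CPM in early and 191 to 529 CPM in late libraries. *Msln*, mesothelin, had the largest fall among named genes that averaged at least 2 CPM in early MEFs, from 59.4, 61.4, 24.4 and 21.1 CPM in early to 0.499, 0.855, 1.66 and 0.464 CPM in late MEFs (log2 fold change −5.60 ± 0.56 (SE), adjusted *P* = 2.83e-04, edgeR). *Upk3b* was at 9.71, 5.76, 14.2 and 8.88 CPM in early and 0.686, 0.855, 1.284 and 0.730 CPM in late MEFs (log2 fold change −3.44 ± 0.44 (SE), adjusted *P* = 8.90e-04, edgeR). *Lrrn4* was at 2.47, 1.24, 3.07 and 1.27 CPM in early and 0.187, 0.0713, 0.529 and 0 CPM in late MEFs and passed in 2 of the 8 fits that left out a library. The keratin *Krt8*, which simple epithelia share, had 20, 6, 25 and 13 counts in early libraries and 0, 0, 0 and 3 in late libraries, a ratio of early to late of 19.4 with a 95% counting interval of 6.34 to 96.5 (adjusted *P* = 0.0143, edgeR). *Krt7*, its relative, fell from 6.14 ± 0.439 to 1.85 ± 0.389 CPM (adjusted *P* = 0.00104, edgeR). Of 18 markers of epithelia and keratinocytes only 6 were tested, of which 1 rose and 2 fell (0 and 1 without both 46 and 47). The count of mesothelial markers that fell was 2 without 46 or 48, 3 without 47, 50, 57, 58 or 60 and 2 without both 46 and 47. *Angptl7*, a secreted protein known from the eye, was at 45.0, 37.8, 12.5 and 14.96 CPM in early and 1.122, 0.784, 1.66 and 0.995 CPM in late MEFs (log2 fold change −4.59 ± 0.58 (SE), adjusted *P* = 9.80e-04, edgeR). *Lgals7*, a galectin of stratified epithelia, and *Megf6*, a multidomain secreted protein, fell by 3.88 and 3.53 on the log2 scale (adjusted *P* = 0.0100 and 0.0176, edgeR), and without early libraries 46 and 47 neither passed (0.232 and 0.242). *Megf6* also did not pass without early library 46 alone (0.0503).

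Endothelial markers did not move together, with 1 higher and 2 lower of 9 (1 and 0 without both 46 and 47). The shares were 11.1% and 22.2%, against 8.28% and 4.89% of all genes. *Vwf*, von Willebrand factor, was at 0.673, 0.434, 0.588 and 1.14 CPM in early MEFs and 5.55, 8.48, 4.23 and 4.98 CPM in late MEFs (log2 fold change 3.03 ± 0.41 (SE), adjusted *P* = 9.81e-04, edgeR). The transcription factor *Erg* was at 19.6, 16.3, 5.03 and 3.00 CPM in early and 2.12, 0.214, 1.06 and 0.597 CPM in late MEFs (log2 fold change −3.44 ± 0.76 (SE), adjusted *P* = 0.0141, edgeR). *Egfl7*, a secreted vessel protein, fell from 17.8 ± 5.61 to 7.90 ± 1.09 CPM (adjusted *P* = 0.00527, edgeR). The receptor *Kdr* was at 4.98 ± 0.483 and 3.10 ± 0.869 CPM and did not pass (adjusted *P* = 0.204, edgeR). Of 14 adipocyte markers only 6 were tested, of which 3 rose and none fell, 50% risen against 8.28% of all genes. Without both 46 and 47, 2 of them rose. *Cebpa*, a factor of fat and myeloid cells, was at 7.01, 6.26, 8.03 and 9.42 CPM in early and 37.7, 38.9, 39.5 and 31.2 CPM in late MEFs (log2 fold change 2.26 ± 0.17 (SE), adjusted *P* = 3.22e-05, edgeR). *Lpl*, lipoprotein lipase, which macrophages also make, was at 23.7, 15.6, 39.2 and 31.5 CPM in early and 85.2, 152, 177 and 70.8 CPM in late MEFs (log2 fold change 2.14 ± 0.33 (SE), adjusted *P* = 0.00258, edgeR). *Pparg*, a nuclear receptor of both lineages, rose from 1.85 ± 0.563 to 5.71 ± 1.13 CPM and passed in 3 of the 8 fits that left out a library. Neural and neural crest markers held 2 risen and 1 fallen among 13, 15.4% and 7.69% against 8.28% and 4.89% of all genes. Their risen count was 0 without 46, 47, 58 or 59, 1 without 48, 50 or 57 and 0 without both 46 and 47. *Gap43* was lower at 55.5 ± 13.0 and 21.04 ± 9.33 CPM (adjusted *P* = 0.00954, edgeR), and the myelin gene *Mbp* (4.76 ± 0.927 and 8.99 ± 2.67 CPM) was not called. No tested marker of skeletal muscle (8 genes), smooth muscle (11) or cartilage and bone (8) passed. Their values were uneven between cultures of one group. *Des*, desmin, was at 19.6, 30.1, 42.0 and 64.5 CPM in early MEFs and 4.11, 4.85, 37.7 and 10.02 CPM in late MEFs (adjusted *P* = 0.206, edgeR, and 0.0412 without late library 59). *Acta1*, skeletal actin, was at 39.6, 50.5, 89.9 and 131 CPM in early and 26.1, 11.7, 31.3 and 142 CPM in late MEFs (adjusted *P* = 0.595, edgeR, and 0.0231 without late library 60). The cartilage collagen *Col2a1* was highest in late library 57, at 10.1 CPM against 0.143 to 0.982 CPM in the other late libraries, and was at 4.99, 1.05, 1.83 and 7.28 CPM in early libraries (adjusted *P* = 0.837, edgeR, and 0.0349 without library 57), while its regulator *Sox9* was at 16.1 ± 5.19 and 20.9 ± 5.54 CPM.

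Patterning genes had wide ranges within both groups and few calls. Hox genes, whose order along a chromosome follows the body axis, held 1 risen and 1 fallen gene among 35, *Hoxc8* and *Hoxa11*. That was 2.86% in each direction against 8.28% and 4.89% of all genes. *Hoxc8* was at 31.6, 27.8, 91.3 and 75.5 CPM in early and 74.4, 182, 158 and 265 CPM in late MEFs, and *Hoxa11* at 21.2, 24.5, 10.4 and 8.88 CPM in early and 7.92, 4.56, 4.98 and 1.92 CPM in late MEFs. They passed in 2 and 3 of the 8 fits that left out a library (adjusted *P* of up to 0.140 and 0.103). *Hoxd13*, the most distal limb gene, was at 127, 149.9, 46.1 and 24.04 CPM in early MEFs and 93.0, 3.85, 69.7 and 4.64 CPM in late MEFs, and *Hoxd12* at 36.5, 47.6, 10.6 and 5.41 CPM in early and 8.23, 0.214, 7.32 and 0.265 CPM in late MEFs. Both were high in early 46 and 47, low in late 58 and 60, and between these in the rest, so that both groups spanned a wide range (adjusted *P* = 0.504 and 0.0951, edgeR). Of 72 mesenchymal and developmental transcription factors 4 rose and 1 fell, 5.56% and 1.39% against 8.28% and 4.89% of all genes. Among these factors the risen count was 1 without 46 or 47, 2 without 50, 58, 59 or 60 and 0 without both 46 and 47, and the fallen count was 2 without 59, 5 without 57, 8 without 50 and 1 without both 46 and 47. *Zeb2*, a repressor in mesenchyme and myeloid cells, rose from 33.2 ± 6.92 to 61.2 ± 6.95 CPM and *Zic1* fell from 5.22 ± 1.87 to 1.01 ± 0.811 CPM (adjusted *P* = 0.00355 and 0.0110, edgeR), whereas *Twist1* (88.3 ± 26.6 and 65.5 ± 30.2 CPM) and *Twist2* (82.9 ± 41.8 and 110.2 ± 49.5 CPM) overlapped between the groups. In Wnt, Hedgehog and Notch signalling 3 of 39 rose and 3 fell, 7.69% in each direction, and the fallen count was 0 without 46, 47 or 59, 1 without 58 and 0 without both 46 and 47. The ligand *Wnt2* rose from 0.810 ± 0.351 to 3.30 ± 0.832 CPM (adjusted *P* = 0.00738, edgeR) and the secreted inhibitor *Frzb* from 4.13 ± 2.41 to 14.4 ± 6.96 CPM, whereas the ligand *Wnt5b* fell from 4.21 ± 1.38 to 1.48 ± 0.532 CPM and the Hedgehog co-receptor *Cdon* from 39.8 ± 18.004 to 14.7 ± 5.74 CPM. *Frzb*, *Wnt5b* and *Cdon* lost their calls in fits without early library 46 and in 3 to 4 others (adjusted *P* of up to 0.0869, 0.0782 and 0.0993). Adhesion genes held 5 risen and 3 fallen of 55, 9.09% and 5.45%, near the shares of all genes. Among adhesion genes the risen count was 2 without 46, 3 without 47, 48, 58 or 59 and 1 without both 46 and 47, and the fallen count was 1 without 46, 47 or 58, 5 without 57, 6 without 60 and 1 without both 46 and 47. The neural adhesion molecule *L1cam* was at 1.86 ± 0.493 and 6.63 ± 2.72 CPM (adjusted *P* = 0.00333, edgeR).

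The *S6K1* set, whose 8 WT libraries share none with these, was put beside this programme in 1 fit of all 22 libraries. In that fit 2008 genes differed with passage in WT MEFs of the *S6K1/S6K2* set, 13.5% of the genes tested, and 2553 in the *S6K1* set, 17.2%. The 1066 genes called in the same direction in both, 708 higher and 358 lower, were 53.1% of the first list and 41.8% of the second, and 43 genes were called in opposite directions. Across 14886 genes, which are not independent, the log2 fold changes had a Pearson *r* of 0.65 and a Spearman rho of 0.55. The macrophage markers had a median of 2.56 here and 3.04 in the *S6K1* set, and mesothelial markers −1.74 and −1.52. *Igf2* changed by −4.37 ± 0.47 (SE) and −6.05 ± 0.52 (SE) on the log2 scale. *Igf1* changed by 2.51 ± 0.27 (SE) and 1.85 ± 0.27 (SE), and *Cdkn2a* by 1.07 ± 0.28 (SE) and 1.21 ± 0.28 (SE). For mitotic genes the medians were −0.72 and −0.46, with 8 of 58 fallen in the *S6K1* set. For interferon-stimulated genes they were −0.93 and −0.39, with 19 of 65 fallen.

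The difference between the sets was tested as an interaction, which called 106 genes, 0.712% of the genes tested, 68 more positive and 38 more negative in the *S6K1/S6K2* set. Immediate-early genes made up the clearest group, with 19 of 38 more positive here and none more negative. In the *S6K1* set 17 of them fell and none rose. *Fos* was at 236, 156, 203 and 145 CPM in early and 8.55, 4.48, 5.71 and 5.10 CPM in late MEFs of the *S6K1* set (difference 10.46 ± 0.38 (SE), adjusted *P* = 2.28e-13, edgeR). On the same scale it was at 4.92, 3.61, 4.87 and 7.55 CPM in early and 238, 267, 164 and 285 CPM in late MEFs of the *S6K1/S6K2* set, so early MEFs of one set overlapped late MEFs of the other. *Egr1* (difference 4.81 ± 0.27 (SE), adjusted *P* = 3.64e-10, edgeR), *Fosb* (difference 11.35 ± 0.47 (SE), adjusted *P* = 1.46e-12, edgeR) and *Ppp1r15a* (difference 2.91 ± 0.20 (SE), adjusted *P* = 1.75e-08, edgeR) showed the same reversal, with log2 fold changes in the *S6K1* set of −3.26, −5.85 and −1.87. *Rgs1*, *Cxcl2*, *Dusp1* and *Hes1* rose here and had log2 fold changes of −0.63, −2.78, −1.11 and −1.16 there. *Atf3*, *Ccrl2*, *Id1*, *Id2*, *Ereg* and *H1f3* had more positive changes here than there, by differences of 2.56, 3.42, 1.51, 1.65, 1.47 and 1.77. In the other direction, *Neat1*, the noncoding RNA that builds paraspeckles, was at 155, 200.3, 209 and 234 CPM in early and 103, 84.5, 120.2 and 111 CPM in late MEFs of this set, and at 37.9, 52.5, 42.2 and 68.0 and 119, 92.1, 100.3 and 108 CPM in the *S6K1* set (difference −1.996 ± 0.27 (SE), adjusted *P* = 2.26e-04, edgeR). *Stat2* fell here by 1.97 on the log2 scale and differed by −1.77 from its change of −0.20 in the *S6K1* set (adjusted *P* = 0.00623, edgeR). *Ap3m2*, an adaptor subunit, *Zfp866*, a zinc finger gene, and *Mir100hg*, a microRNA host RNA, had differences of −1.17, −1.96 and −1.39 (adjusted *P* = 4.26e-04, 0.00329 and 0.00329, edgeR). The sets were separate cultures with separate early and late harvests, so the set and the occasion of each harvest cannot be told apart.

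**Figure D4:**
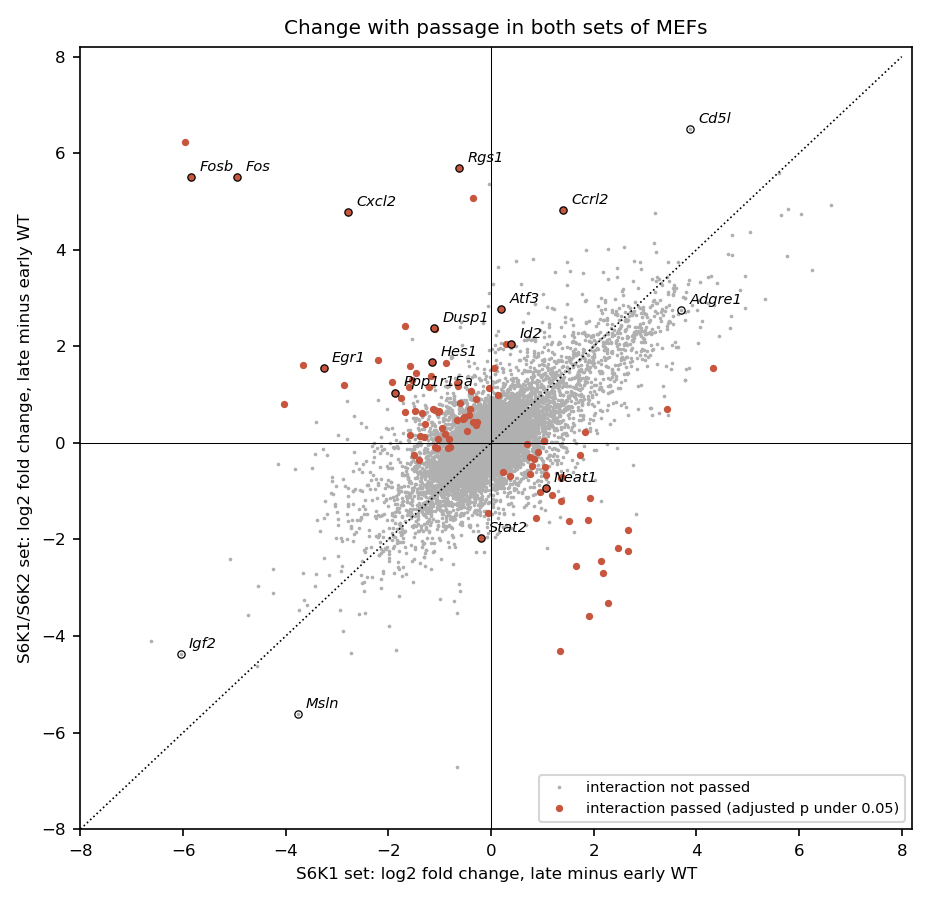
Log2 fold change of late against early WT MEFs in the *S6K1* set (x axis) and in the *S6K1/S6K2* set (y axis) for each gene tested in both fits, with the line of equal change dotted and genes that passed the interaction test in red. *Fos*, *Fosb* and *Egr1* lay in the upper left quadrant, risen here and fallen there, while *Cd5l*, *Adgre1*, *Msln* and *Igf2* lay in the quadrants where both sets moved the same way.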

How the data were processed

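RNA was extracted with Trizol from MEFs at passage 3 and passage 8, and stranded poly(A) libraries were read with single 50-base reads, per the study's methods. The authors deposited 1 table of raw counts per gene for all 22 libraries, with no normalization. The sources differ on how it was made. The submitters' processing notes name CASAVA, STAR 2.7.1a, DESeq2 1.28.1 and the build mm10, and the methods of the study name TopHat, HTSeq and mm9, so no position is taken from the counts. The strand setting of the counting is not given in the sources used here. Ensembl identifiers were paired with symbols for 32589 of 55401 identifiers, which held 97.0% of counts.

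The contrast of late against early WT MEFs was fitted to the 11 libraries of the set (4 early WT, 4 late WT, 3 late DKO) with edgeR 4.0.16 in R 4.3.3 (TMM scaling, filterByExpr, robust quasi-likelihood fit, two-sided test, Benjamini-Hochberg adjustment over all genes tested, threshold 0.05). The SE of a log2 fold change was taken from the quasi-likelihood F statistic. The difference between the sets was the interaction contrast in a fit of all 22 libraries. Medians of lists, and counts of members that passed, stand beside those of all genes. The code was tested on simulated counts. Ratios of summed counts carry exact 95% counting intervals. The alternatives were DESeq2 1.42.0, other scaling (RLE), no filter on low counts, the WT libraries alone, all 22 libraries, a Y-linked covariate, a minimum of 2-fold, and leaving out each library. A further 3 were added after seeing the data: libraries with Y-linked RNA alone, early libraries 46 and 47 left out, and an offset for transcript length. The members and lists were chosen with earlier results of these data known.

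Genes were named by a rule: regulators of senescence, the sex-linked genes, the 10 largest rises and falls without overlap and with a mean of at least 2 CPM in the higher group, the 5 rises and 5 falls with the smallest *P*, the first 2 members of each list with up to 4 of its rises and 4 of its falls, and the 4 smallest interaction *P* in each direction. All 200 genes named fall under it, and of the 253 it gives some are left to the counts or are not reported here. Promoter sequences are from RefSeq on GRCm38.p6. Total counts were 14242348 to 16346322 per library. A limit of 3 counts was read as the lowest level present, and counting intervals cover counting error only.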

Additional observations from a re-analysis of the deposited data

Results flagged for a closer look

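In groups of 4 libraries, 1 library lay far from the other 3, relative to the range of the group, for 14 named genes. Chance alone marks about 1 in 20 groups in this way, so these are given as values. Late library 60 was alone among the late libraries in lacking Y-linked RNA, with *Ddx3y* at 0.0663 CPM against 109 to 160.3 CPM, *Uty* at 0 CPM against 11.8 to 15.9 CPM, *Kdm5d* at 0 CPM against 9.74 to 15.1 CPM and *Eif2s3y* at 0 CPM against 122 to 154 CPM. In early library 46 *Cdkn2b* was at 90.5 CPM, against 113 to 118 CPM in the other 3 and *Tyms* was at 29.7 CPM, against 22.8 to 23.8 CPM in the other 3. In early library 47 *Fosb* was at 3.10 CPM, against 1.40 to 1.502 CPM in the other 3 and *Tgfbr1* was at 20.02 CPM, against 27.4 to 27.5 CPM in the other 3. In early library 48 *Gap43* was at 75.0 CPM, against 47.98 to 50.02 CPM in the other 3. In late library 57 *Osmr* was at 142 CPM, against 103 to 105 CPM in the other 3 and *Iigp1* was at 2.12 CPM, against 0.663 to 0.784 CPM in the other 3 and *Col3a1* was at 3012 CPM, against 1121 to 1237 CPM in the other 3. In late library 58 *Bnip3* was at 35.6 CPM, against 62.3 to 68.4 CPM in the other 3. In late library 59 *Trp53* was at 67.1 CPM, against 91.3 to 94.6 CPM in the other 3.

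Of the named genes, 19 changed with passage by a different amount in the 2 sets of MEFs, by the test of the difference itself (edgeR, adjusted over all genes tested). The log2 fold change was more positive in the *S6K1/S6K2* set, with a negative value in the *S6K1* set, for *Rgs1* (6.31, adjusted *P* = 1.21e-04), *Fos* (10.46, adjusted *P* = 2.28e-13), *Fosb* (11.35, adjusted *P* = 1.46e-12), *Egr1* (4.81, adjusted *P* = 3.64e-10), *Dusp1* (3.48, adjusted *P* = 1.12e-06), *Ppp1r15a* (2.91, adjusted *P* = 1.75e-08), *Cxcl2* (7.56, adjusted *P* = 1.25e-06), *Hes1* (2.83, adjusted *P* = 0.00127) and *Ereg* (1.47, adjusted *P* = 0.0253), where the number is the difference of the log2 fold changes by edgeR. It was more positive with a value above 0 in both sets for *H1f3* (1.77, adjusted *P* = 0.0340), *Atf3* (2.56, adjusted *P* = 0.00370), *Ccrl2* (3.42, adjusted *P* = 0.00763), *Id1* (1.51, adjusted *P* = 0.00429) and *Id2* (1.65, adjusted *P* = 0.00286) (edgeR). It was more negative in the *S6K1/S6K2* set for *Stat2* (−1.77, adjusted *P* = 0.00623), *Neat1* (−1.996, adjusted *P* = 2.26e-04), *Ap3m2* (−1.17, adjusted *P* = 4.26e-04), *Zfp866* (−1.96, adjusted *P* = 0.00329) and *Mir100hg* (−1.39, adjusted *P* = 0.00329) (edgeR). The part of the harvest in these differences was not tested.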

How the results depend on the processing

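Of 199 named genes that were tested, 150 passed, and none of these changed sign in any alternative. Of those that did not pass, 16 changed sign in at least 1. Of the 150, 27 lost their call in at least 1 fit that left out a library and 62 passed under every alternative, counted over the fits that held the gene (*Krt8* fell below the filter in some). The counts of genes depended more on the setting. Against 1892 genes (1190 higher and 702 lower), leaving out single libraries gave 885 to 2247 genes, 609 to 1274 higher and 272 to 973 lower. Leaving out early libraries 46 and 47 together gave 318 (251 and 67), the libraries with Y-linked RNA alone gave 489 (373 and 116), and a minimum of 2-fold gave 944 (658 and 286). The first 2 of these use fewer libraries. DESeq2 called 1259 genes lower, and the cause was not tested. For the difference between the sets, DESeq2 called 218 genes (134 and 84) against 106 (68 and 38), and the cause was not tested; leaving out single libraries gave 78 to 118 genes, 48 to 81 and 30 to 38. The other alternatives kept every such count within 1.5 times. No paired analysis was possible because library numbers are unique to a library and pair no early with a late culture. At this depth 3 counts are 0.184 to 0.211 CPM, which limits what can be said of genes such as *Il1a*.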
